A study of Mus musculus with 17 samples.

Results

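The effect of placing an extra α-globin promoter and gene between the α-globin enhancers and their native genes was examined in mouse erythroid cells, by comparing the 4 libraries with that insert (αP+G) with the 3 libraries of the parental line without it (WT αYFP). These 7 libraries were chosen by their sample titles from the 17 of the series. Interactions were read from 3 viewpoints upstream of the insert, HS38, R1 and R2, and from Hbb-b1, Hbb-b2 and Slc25A37 on other chromosomes, where nothing was edited. Capture-C was used, which cuts crosslinked chromatin with the enzyme DpnII, joins DNA ends that lie close together, and pulls down with oligonucleotides the joined molecules of a few chosen fragments, the viewpoints, for sequencing.

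All cells of both groups descended from E14TG2a embryonic stem cells in which one allele of the α-globin locus carries a large deletion, so the remaining allele is the only copy. On that allele Hba-a1 is fused to a 2A peptide and the yellow fluorescent protein mVenus, in both groups. WT αYFP cells carry no further change, and αP+G cells also carry the Hba-a1 promoter and gene body at the landing site. By the study's account the insert was brought in with a selection cassette between loxP sites, removable with Cre recombinase. Its homology arms lie on either side of the landing site. The groups therefore also differ in these editing steps. Stem cells were differentiated as embryoid bodies for 1 week and CD71+ cells, which are erythroid cells resembling primitive erythroblasts, were isolated. The libraries of a group are separate differentiations by the study's account, and whether they come from 1 or several edited clones is not given in the sources used here. Another 4 libraries with the promoter alone at the same site (αPonly) shared the estimate of spread and are given as a reference where their values help.

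Enhancers are stretches of DNA that raise transcription of a gene at a distance, and contact between an enhancer and a promoter is measured as ligation between their fragments. At the mouse α-globin locus several erythroid enhancers, among them R1 and R2, lie upstream of the genes, within introns of the widely expressed gene Nprl3. The genes follow in the order Hba-x, which encodes the embryonic ζ-globin chain, Hba-a1 and Hba-a2, which encode the α-globin chain of adult haemoglobin, with the θ-globin genes Hbq1b and Hbq1a interspersed. Enhancers and genes share a self-interacting domain, the sub-TAD, flanked by sites bound by the insulator protein CTCF, and HS38 is a viewpoint at its upstream border, which has a pair of neighbouring CTCF sites. The fragment deposited under the name HS38, chr11:32138079-32139000, lies downstream of where the study's figure legends place that site, so which site of the pair the HS38 values describe is uncertain.

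The landing site is shown because all distances are counted from it. It lies on chromosome 11 of the mm9 build between the last enhancer and Hba-x, in sequence annotated as intergenic. The stretch chr11:32171747-32171896 on the plus strand is printed with the 70 bases of the landing site in capitals and 40 bases on each side in lower case.
Landing site: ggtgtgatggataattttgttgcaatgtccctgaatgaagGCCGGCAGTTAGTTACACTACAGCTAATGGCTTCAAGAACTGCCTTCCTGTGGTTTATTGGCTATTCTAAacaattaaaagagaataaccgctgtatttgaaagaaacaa
The viewpoints lay upstream of it, HS38 at -33.3 kb, R1 at -25.9 kb and R2 at -20.4 kb.

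The native sequence of the inserted promoter is shown because αP+G cells hold an additional copy of this promoter, 11.5 kb upstream of its native position. The study mentions a single-base difference between inserted and native promoters, so the inserted copy may differ from the printed bases. The 250 bases before the start of Hba-a1, taken from RefSeq (GRCm38.p6) and matched exactly to mm9, lie at chr11:32183422-32183671 in mm9, on the plus strand, and this stretch has 2 exact matches on chromosome 11, at Hba-a1 and at Hba-a2. Capitals mark matches to 4 motifs, each searched on both strands. They are the GATA factor motif GATAA, bound by the erythroid regulator GATA1, the box named CCAAT, the TATA box TATAA and the Krüppel-like factor motif CACCC, and the matches do not overlap.
Hba-a1 promoter: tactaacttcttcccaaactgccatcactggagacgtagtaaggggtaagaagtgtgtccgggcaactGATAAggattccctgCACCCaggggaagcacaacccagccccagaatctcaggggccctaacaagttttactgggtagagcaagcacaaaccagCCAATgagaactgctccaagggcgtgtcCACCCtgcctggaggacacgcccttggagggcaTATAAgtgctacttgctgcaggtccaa
The motif CACCC occurred 2 times and each of the others 1 time. Of 32851 RefSeq promoter windows of this length, 22.6% held the motif GATAA and 33.8% held CCAAT, while 22.8% held TATAA and 52.0% held CACCC.

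The interval of mm9 that was inserted covers 1154 bases and holds 4 DpnII sites, so the insert also brought new cutting sites to the landing site. A fragment of 275 bases lies wholly inside it and is shown because ligation to the inserted copy and to the native copies cannot be told apart there. It lies at chr11:32183838-32184112 on the plus strand, it has 189 coding bases of Hba-a1, printed in capitals, and its counterpart at Hba-a2 differs at 0 positions.
Fragment inside the insert: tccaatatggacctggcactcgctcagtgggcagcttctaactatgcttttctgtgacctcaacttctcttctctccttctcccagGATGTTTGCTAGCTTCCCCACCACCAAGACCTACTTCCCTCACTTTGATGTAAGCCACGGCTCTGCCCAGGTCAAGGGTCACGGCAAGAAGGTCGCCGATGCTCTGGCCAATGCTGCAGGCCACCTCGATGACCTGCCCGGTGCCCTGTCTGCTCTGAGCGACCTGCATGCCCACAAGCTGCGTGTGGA
In all, 6 fragments, 3 at Hba-a1 and 3 at Hba-a2, share sequence with the insert and are treated as a window of their own below.

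The total number of interactions over all viewpoints was between 140451 and 147465 in the αP+G libraries and between 111059 and 196977 in the WT αYFP libraries, of which 66.2% ± 0.661 (SD, n = 4) and 65.9% ± 0.866 (SD, n = 3) were in cis. Values below are interactions per 100,000 cis interactions of a viewpoint outside its exclusion zone. That total was between 16235 and 17408 for R2, 10649 and 11347 for R1 and 10265 and 12028 for HS38 in αP+G, and between 13565 and 21735, 7554 and 14791, and 7337 and 15672 in WT αYFP. WT αYFP replicate 1 was the shallowest of these 7 libraries from each of these viewpoints. The spread among replicates exceeded counting noise in αP+G and in WT αYFP, with a chi-square per degree of freedom between 1.83 and 2.20 over fragments.

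With the insert in place, both enhancers interacted more with the insertion region in these libraries. R2 interacted less with the stretch that begins before Hba-x and ends ahead of Hba-a1. The study compared these data at the level of fragments and described such changes from R2 as a trend. Its differences were not significant, with DESeq2 as its test of interaction counts. The insertion region is the 8 DpnII fragments around the landing site, and the native stretch is 21 fragments that hold Hba-x and end short of the Hba-a1 promoter. Over 10 regions and 3 viewpoints, 3 of 30 combinations passed an adjusted p of 0.05 in edgeR's quasi-likelihood test, which is 10.0% of those tested.

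From R2, the 4 αP+G libraries had 2363, 2458, 2396 and 2166 interactions per 100,000 with the insertion region, and the 3 WT αYFP libraries had 1961, 1458 and 1878. Every αP+G library lay above every WT αYFP library. This was a log2 difference of 0.42 (SE 0.11, edgeR adjusted p = 0.0025), a fold of 1.34, on raw counts of 377 to 414 and of 266 to 406 per library.

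From R1, the enhancer farther from the landing site, the αP+G libraries had 1974, 1653, 2103 and 2300 and the WT αYFP libraries 1099, 1352 and 1611 interactions per 100,000 with the same region. The groups again did not overlap, although αP+G replicate 2 and WT αYFP replicate 3 were close. The log2 difference was 0.54 (SE 0.13, edgeR adjusted p = 0.0025), a fold of 1.45. From HS38 the insertion region had 775 ± 118 (SD, n = 4) in αP+G and 733 ± 72.4 (SD, n = 3) in WT αYFP, with a log2 difference of 0.08 (SE 0.16, edgeR adjusted p = 0.79), and the groups overlapped. This was the viewpoint with the fewest counts there, 53 to 127 per library.

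From R2 the stretch from Hba-x to upstream of Hba-a1 had 4793, 4293, 4734 and 4326 interactions per 100,000 in αP+G and 5544, 5038 and 6382 in WT αYFP. Here every αP+G library lay below every WT αYFP library. In the fit this was a log2 difference of -0.32 (SE 0.08, edgeR adjusted p = 0.0025). From R1 the same stretch had 5141 ± 346 (SD, n = 4) and 5519 ± 255 (SD, n = 3), with a log2 difference of -0.11 (SE 0.08) that did not pass the test (edgeR adjusted p = 0.46). From HS38 the value was higher in αP+G, 2804 ± 340 against 2472 ± 198, with a log2 difference of 0.20 (SE 0.09, edgeR adjusted p = 0.20).

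**Figure D1:**
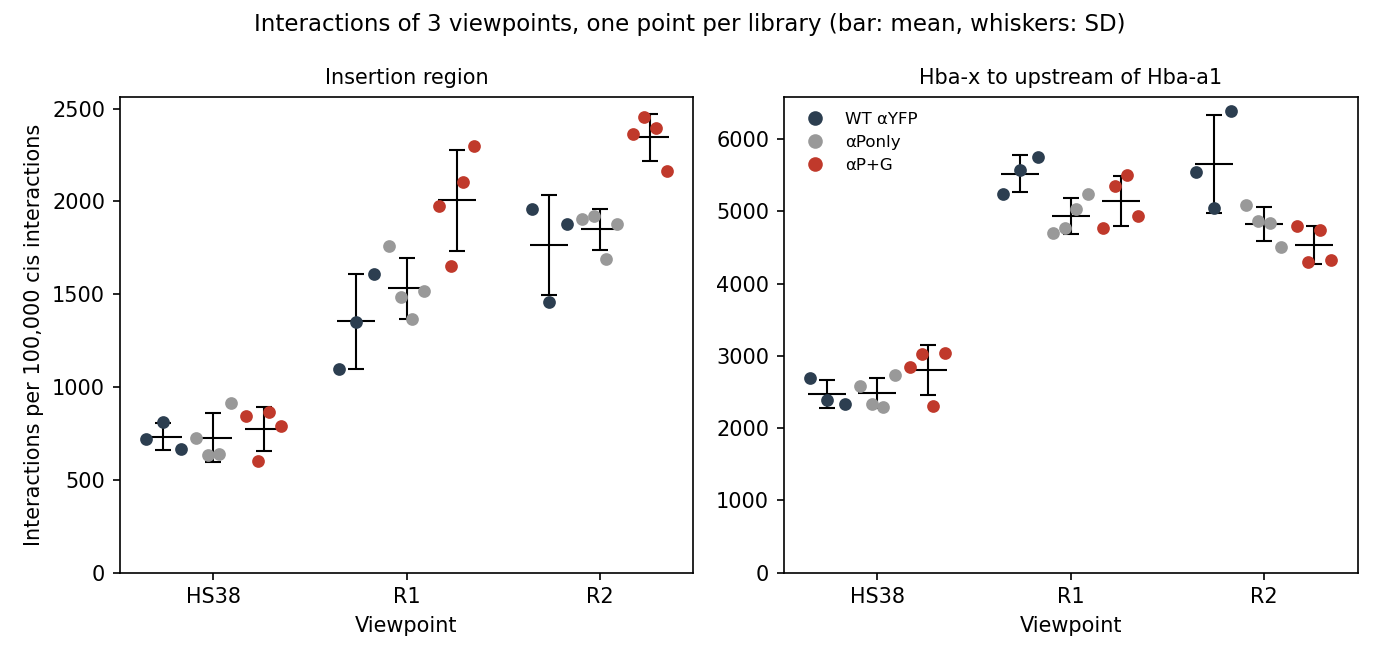
Interactions per 100,000 cis interactions of the viewpoints HS38, R1 and R2 with the insertion region (left) and with the stretch from Hba-x to upstream of Hba-a1 (right), each axis from 0, one point per library, bars for means and whiskers for SD. From R2 the αP+G libraries sit between 2166 and 2458 on the left, above the WT αYFP libraries (1458 to 1961), and between 4293 and 4793 on the right, below them (5038 to 6382).

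The αPonly libraries, compared with the same αP+G libraries, give a reference for these 3 calls. At the insertion region they had 1849 ± 108 (SD, n = 4) from R2 and 1533 ± 165 from R1, and αP+G was higher by 0.35 (SE 0.10, edgeR adjusted p = 0.028) and by 0.40 (SE 0.12, edgeR adjusted p = 0.029) on the log2 scale, the only calls among 30 in that comparison (6.67%). The promoter alone ends before the first DpnII site of the inserted interval, 478 bases in, so only αP+G gained cutting sites. The part this plays in these 2 calls was not tested. From R1 the fragment that holds the landing site, part of this region, had 342 in αP+G, 189 in αPonly and 191 in WT αYFP. From R2 it had 380, 290 and 247. At the stretch from Hba-x, αPonly had 4824 ± 239 from R2, nearer to the αP+G mean of 4536 than to the WT αYFP mean of 5655. The log2 difference between αP+G and αPonly there was -0.09 (SE 0.08) and did not pass the test (edgeR adjusted p = 0.64).

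The R1 gain passed the test under all 15 alternatives in processing, with log2 differences from 0.44 to 0.68. Fitted without the αPonly libraries, the R2 gain and the R2 loss kept their sizes and had adjusted p = 0.098 and 0.099, and without WT αYFP replicate 3 the R2 loss was -0.22 on the log2 scale (edgeR adjusted p = 0.082).

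The remaining regions did not pass the test. The enhancer cluster had 31396 ± 1328 interactions per 100,000 from R2 in αP+G and 29349 ± 1425 in WT αYFP (log2 difference 0.10, SE 0.06, edgeR adjusted p = 0.37). The downstream flank of the sub-TAD, from its end to the end of the larger domain (TAD), had 5802 ± 162 from HS38 against 6419 ± 372, with all αP+G libraries below all WT αYFP libraries (log2 difference -0.15, SE 0.05, edgeR adjusted p = 0.068). From R1 the region beyond the TAD had 953 ± 100 against 1280 ± 266 (log2 difference -0.40, SE 0.16, edgeR adjusted p = 0.090). DESeq2's Wald test called both of these as well, 5 of 30 in all.

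Smaller windows were then tested, 15 per viewpoint. Some divide the insertion region at the landing site and the downstream regions by gene or by sequence shared with the insert. The others are further protein-coding genes, among them Il9r, Snrnp25, Rhbdf1, Mpg and Nprl3 upstream of the landing site. Windows can overlap, as those of Mpg and Nprl3 do. Of the 45 combinations, 5 passed the test (11.1%), 4 of them from R2. The part of the insertion region to the right of the landing site, between the insert and Hba-x, rose from both enhancers, while Hba-x fell from R2. Windows that share sequence with the insert rose from R2 and the rest of the gene region fell from R2.

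To the right of the landing site R1 had 1292, 1174, 1336 and 1384 interactions per 100,000 in αP+G and 768, 953 and 958 in WT αYFP. The lowest αP+G library was above the highest WT αYFP library, and the log2 difference was 0.52 (SE 0.11, edgeR adjusted p = 0.012). From R2 the αP+G libraries had 1447, 1663, 1389 and 1453 and the WT αYFP libraries 1238, 994 and 1193. These groups did not overlap either, with a log2 difference of 0.39 (SE 0.13, edgeR adjusted p = 0.048), and HS38 had 474 ± 70.0 (SD, n = 4) against 371 ± 100.0 (SD, n = 3), a log2 difference of 0.39 (SE 0.23, edgeR adjusted p = 0.33).

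The fragment that holds the landing site itself, chr11:32170702-32172142, is cut by the insert's DpnII sites in αP+G cells, and the part this plays in its value was not tested. From R2 it had 452, 370, 428 and 270 interactions per 100,000 in αP+G and 258, 230 and 254 in WT αYFP, without overlap. The resulting log2 difference was 0.62 (SE 0.24, edgeR adjusted p = 0.074). From R1 it was 0.76 (SE 0.31), again without overlap, and from HS38 0.68 (SE 0.47) with overlap, and neither passed (edgeR adjusted p of 0.16 and 0.40). To the left of the landing site, on the side of the enhancers, the log2 difference was 0.37 (SE 0.22) from R2, 0.42 (SE 0.37) from R1 and -0.89 (SE 0.42) from HS38. None of these passed the test (edgeR adjusted p from 0.18 to 0.49), and the HS38 value rested on 4 to 51 counts per library.

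Hba-x, the gene next to the landing site, had 1971, 1657, 1945 and 1597 interactions per 100,000 from R2 in αP+G and 2344, 2001 and 2719 in WT αYFP. Replicate 1 of αP+G lay just under replicate 2 of WT αYFP, and the groups did not overlap. The log2 difference was -0.39 (SE 0.12, edgeR adjusted p = 0.020). From R1 it was -0.13 (SE 0.10) and from HS38 0.35 (SE 0.16), with edgeR adjusted p of 0.49 and 0.18. The rest of that stretch, mostly the gap between Hba-x and the Hba-a1 promoter, had a log2 difference of -0.27 from R2 (SE 0.10, edgeR adjusted p = 0.071), with every αP+G library lower.

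The gene region from Hba-a1 to the end of the sub-TAD as a whole had 11935 ± 1456 interactions per 100,000 from R2 in αP+G and 12386 ± 801 in WT αYFP, a log2 difference of -0.05 (SE 0.07, edgeR adjusted p = 0.64). Its members moved in opposite directions. The 6 fragments that share sequence with the insert had 4238, 3215, 4769 and 2861 in αP+G and 2676, 2862 and 2960 in WT αYFP, so that replicates 1, 2 and 3 were above the WT αYFP range, replicate 2 by little, and replicate 4 was inside it. The log2 difference was 0.41 (SE 0.11, edgeR adjusted p = 0.012).

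The other 33 fragments of the gene region, which hold Hbq1b, Hbq1a and the spacers, had 8458, 7527, 8843 and 7830 from R2 in αP+G and 9790, 8686 and 10184 in WT αYFP. Only αP+G replicate 3 reached the WT αYFP range. The log2 difference was -0.23 (SE 0.07, edgeR adjusted p = 0.028), while the small windows of the θ-globin genes Hbq1b and Hbq1a had -0.20 (SE 0.13) and -0.17 (SE 0.17) and did not pass. From R1 the shared fragments and the other fragments had 0.07 (SE 0.12) and -0.04 (SE 0.09). From HS38 they had 0.28 (SE 0.10, edgeR adjusted p = 0.074) and -0.07 (SE 0.08).

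**Figure D2:**
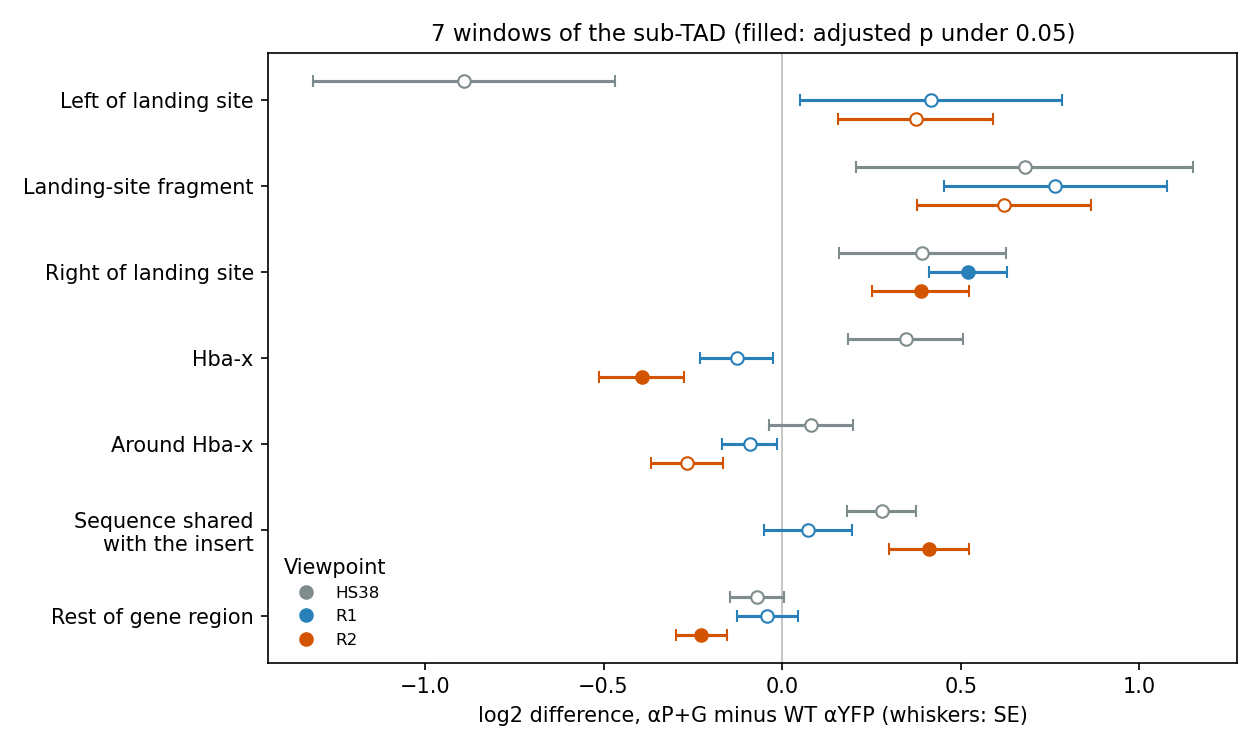
Log2 difference between αP+G and WT αYFP (horizontal axis, whiskers SE) for 7 windows of the sub-TAD, by viewpoint, with filled points for an adjusted p under 0.05. R2 (orange) lies at 0.41 for the fragments that share sequence with the insert and at -0.39 and -0.23 for Hba-x and the rest of the gene region.

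The αPonly libraries had 2878 ± 250 (SD, n = 4) from R2 on the shared fragments, near the WT αYFP mean of 2833, and the direct log2 difference between αP+G and αPonly was 0.39 (SE 0.10, edgeR adjusted p = 0.018), the only call among 45 in that comparison (2.22%). The αPonly insert holds the promoter as well, so the promoter fragments share sequence with it and the other shared fragments do not. At Hba-a1 the promoter fragment had 544 from R2 in αPonly, 579 in αP+G and 528 in WT αYFP. At Hba-a2 it had 583, 614 and 493. The single αPonly libraries had 736, 447, 540 and 453 at Hba-a1 and 826, 488, 545 and 471 at Hba-a2, so replicate 1 raised both αPonly means. In αPonly, αP+G and WT αYFP, the fragment wholly inside the insert had 408, 618 and 417 at Hba-a1, and 391, 602 and 406 at Hba-a2. At Hba-x αPonly had 1883 ± 171 from R2, near the αP+G mean of 1792 and below the WT αYFP mean of 2355, with a log2 difference between αP+G and αPonly of -0.06 (SE 0.11, edgeR adjusted p = 0.79). All 5 window calls were lost when the αPonly libraries were left out of the fit (adjusted p = 0.072 each), and at least 1 library left out ended each call. Another scaling or test also ended 3 of them, DESeq2's Wald test for the right side from R1 (adjusted p = 0.17), DESeq2 size factors for the shared fragments (0.070) and TMM factors for the rest of the gene region (0.12). The libraries were WT αYFP replicate 1 for the right side from R1 (adjusted p = 0.11), αP+G replicates 1, 2 and 4 and each WT αYFP replicate for the right side from R2 (0.062 to 0.20), αP+G replicates 2 and 4 and WT αYFP replicates 1 and 3 for Hba-x (0.073 to 0.14) and for the rest of the gene region (0.079 to 0.13), and αP+G replicate 3 and WT αYFP replicates 1 and 2 for the shared fragments (0.061 to 0.13).

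The shared fragments were also followed singly, since interactions with the inserted copy would be listed at either native copy. On the fragment wholly inside the insert, R2 had 651, 530, 822 and 471 interactions per 100,000 at Hba-a1 in αP+G and 406, 364 and 481 in WT αYFP. At the identical fragment of Hba-a2, chr11:32196655-32196929, it had 687, 462, 718 and 540 against 310, 382 and 527. The Hba-a1 fragment had a log2 difference of 0.57 (SE 0.19), with an edgeR adjusted p of 0.13. Its Hba-a2 twin had 0.55 (SE 0.19), with 0.14.

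The fragments at the 3′ end of both genes had 0.34 (SE 0.18) at Hba-a1 and 0.57 (SE 0.19) at Hba-a2 from R2. Their mm9 sequences differ at 3 of 593 positions. In these cells the native Hba-a1 fragment is not the mm9 one, since Hba-a1 is fused to mVenus at the end of its coding sequence. By the study's account the inserted gene also has a single-base difference of its own in exon 3. The promoter fragments had 0.13 (SE 0.18) and 0.32 (SE 0.19). All 6 single fragments were therefore higher in αP+G from R2, and none passed the test over single fragments.

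At the level of single fragments, 1 of 873 tested from HS38, R1 and R2 passed (0.115%), and 66 had an unadjusted p under 0.05. The call was chr11:32181399-32182316 from R2, an intergenic fragment of 918 bases, 10.0 kb downstream of the landing site, between Hba-x and Hba-a1. The αP+G libraries had 193, 105, 86.8 and 167 interactions per 100,000 and the WT αYFP libraries 317, 262 and 328. All αP+G libraries were lower, on 15 to 32 counts against 43 to 71. On the log2 scale the difference was -1.13 (SE 0.25, edgeR adjusted p = 0.0058).
This was the largest fall of the stretch, and the middle 200 bases of the fragment, chr11:32181758-32181957 on the plus strand, are printed for that reason.
Middle of the fragment: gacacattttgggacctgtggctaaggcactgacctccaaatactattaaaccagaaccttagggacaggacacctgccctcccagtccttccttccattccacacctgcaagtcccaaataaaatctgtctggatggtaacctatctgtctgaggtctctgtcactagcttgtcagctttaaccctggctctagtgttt
Neither GATAA nor CACCC was found in it on either strand (0 matches each), and 19.8% and 41.6% of 363 such windows of the fragments in and near the TAD held them. The call was lost without αP+G replicate 2 (log2 difference -1.02, adjusted p = 0.092) and without WT αYFP replicate 3 (-1.05, adjusted p = 0.069).

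The next smallest p values from R2 lay at Hba-x and beside the landing site. The Hba-x exon fragment chr11:32176950-32177115 had 157, 203, 226 and 184 interactions per 100,000 in αP+G and 361, 331 and 333 in WT αYFP, a log2 difference of -0.82 (SE 0.22, edgeR adjusted p = 0.0501). The fragment chr11:32177758-32178042, also in an Hba-x exon, had -0.70 (SE 0.21, edgeR adjusted p = 0.10). Just right of the landing site, chr11:32172631-32172860 had 380, 450, 312 and 437 against 265, 170 and 259, a log2 difference of 0.78 (SE 0.22, edgeR adjusted p = 0.0501).

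From R1 the smallest p values of the insertion region were those of the landing-site fragment (0.77, SE 0.27) and of the same chr11:32172631-32172860 (0.59, SE 0.28). In the native stretch they were those of a fragment next to the Hba-a1 promoter (-0.71, SE 0.26), of the Hba-x fragment chr11:32177758-32178042 (-0.53, SE 0.25), and of chr11:32175502-32175856 upstream of Hba-x, which was higher (0.56, SE 0.27). From HS38 chr11:32172861-32173028 and chr11:32179854-32180844 had log2 differences of 1.00 (SE 0.37) and 1.17 (SE 0.49), and an Hba-x exon fragment, chr11:32177116-32177660, had 0.79 (SE 0.34). None of these R1 and HS38 fragments passed (edgeR adjusted p from 0.47 to 0.66).

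The direction of single fragments showed how evenly a region moved. In the insertion region all 8 tested fragments were higher in αP+G from R2 and all 8 from R1, with median log2 differences of 0.36 and 0.56, against medians of 0.01 and -0.01 over all fragments tested from these viewpoints. From HS38, 6 of the 8 fragments passed the filter on low counts and 5 of these were higher. In the stretch from Hba-x to upstream of Hba-a1, 16 of 21 fragments were lower from R2 (median -0.21), 14 of the 20 tested were lower from R1 (median -0.07), and 9 of the 20 tested were lower from HS38 (median 0.04).

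The fragments whose groups did not overlap were also counted. In the insertion region 4 of 8 had all αP+G libraries above all WT αYFP libraries from R2, and 3 of 8 from R1, where 5.71% of 280 and 3.46% of 260 tested fragments had that order. In the native stretch 5 of 21 had all αP+G libraries below from R2 and 2 of 20 from R1, where 4.64% and 4.62% of those tested did. In the same stretch 1 of 20 from R1 and 0 of 21 from R2 had all αP+G libraries above. From HS38, 0 of the 6 tested in the insertion region lay above or below, and in the native stretch 1 of 20 lay above and 0 of 20 below, with 2.7% above and 3.6% below over 333 tested fragments.

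In bins of 5 kb counted from the landing site, 1 of 554 passed (0.181%), the bin centred on the landing site from R2. It had 3901, 4182, 4150 and 3504 interactions per 100,000 in αP+G and 3258, 2765 and 3145 in WT αYFP, all αP+G libraries higher, with a log2 difference of 0.37 (SE 0.09, edgeR adjusted p = 0.0078). From R1 the same bin had 3238, 3014, 3150 and 3499 against 2065, 2420 and 2950, also without overlap (log2 difference 0.36, SE 0.10, edgeR adjusted p = 0.057). The next bin downstream, which holds Hba-x, had -0.25 from R2 (SE 0.09, edgeR adjusted p = 0.46). From HS38 the 3 smallest p values lay at -475, -350 and 35 kb, and from R1 a bin at 75 kb had -1.44 (SE 0.40, edgeR adjusted p = 0.057) on 5 to 34 counts. The R2 call was lost without αP+G replicate 2 or 3 (adjusted p = 0.071 and 0.072), without WT αYFP replicate 2 (0.27) and in DESeq2 (0.29).

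**Figure D3:**
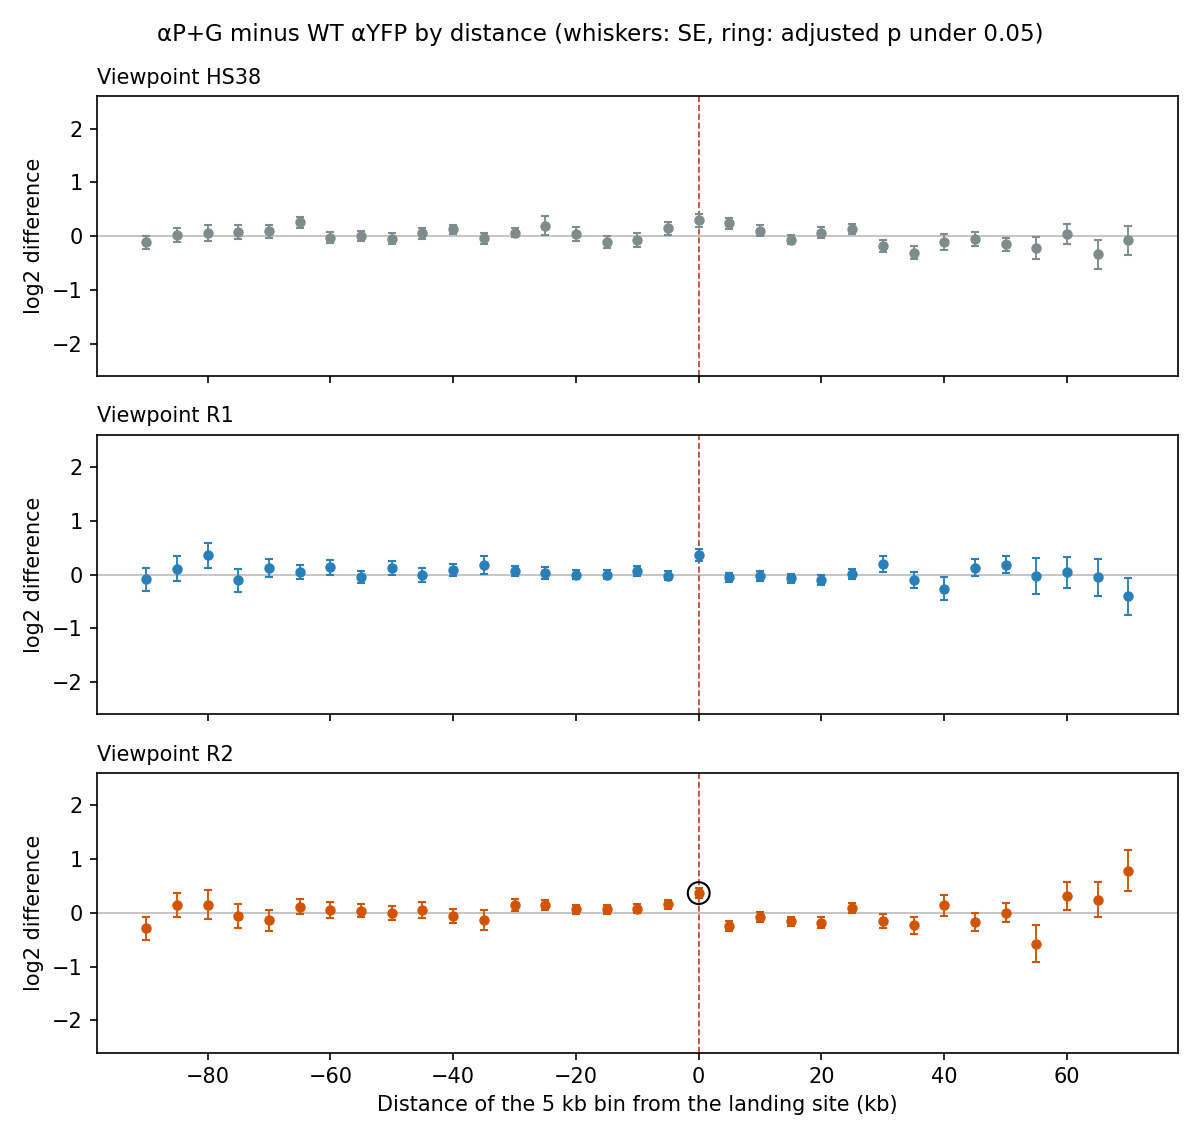
Log2 difference between αP+G and WT αYFP in 5 kb bins (whiskers SE) against the distance of the bin from the landing site in kb, for each viewpoint, with a dashed line at the landing site and a ring around a bin with an adjusted p under 0.05. The bin at the landing site is at 0.37 from R2 (ringed) and 0.36 from R1, and the next bin downstream is at -0.25 from R2.

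Ratios within a library do not depend on its depth, so the insertion region was also divided by the stretch from Hba-x to upstream of Hba-a1 in each library. From R2 the log2 ratio was -1.02, -0.80, -0.98 and -0.998 in αP+G and -1.50, -1.79 and -1.77 in WT αYFP. The groups were well apart, with a difference of 0.73 in the means (exact two-sided permutation p = 0.029, the smallest that 35 arrangements allow). From R1 the ratio was -1.27, -1.70, -1.39 and -1.10 against -2.25, -2.04 and -1.83, a difference of 0.68 (exact permutation p = 0.057) without overlap. From HS38 the difference was -0.11 (exact permutation p = 0.77). Adjusted over the 16 ratios of the family by Benjamini-Hochberg, the first was 0.23 and so was the R1 value, and none of the 16 passed.

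**Figure D4:**
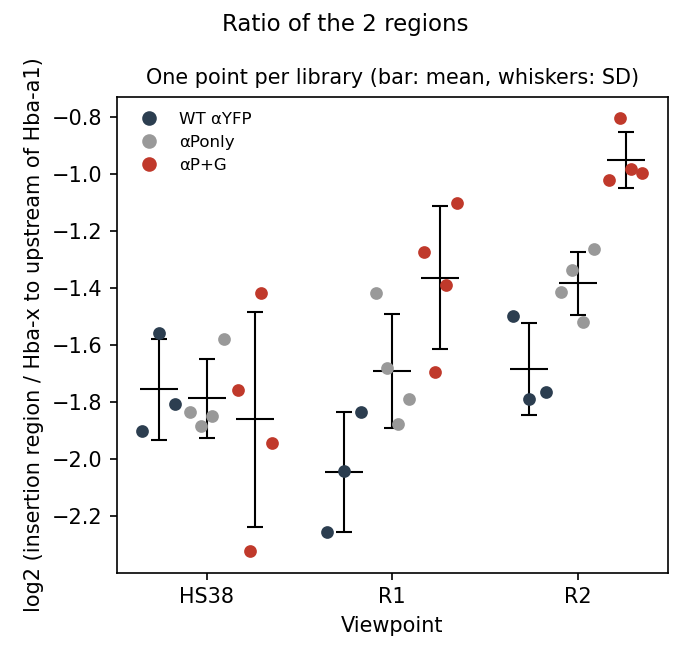
Log2 ratio of the interactions with the insertion region to those with the stretch from Hba-x to upstream of Hba-a1 (vertical axis), by viewpoint, one point per library, bars for means and whiskers for SD. From R2 the αP+G libraries lie between -1.02 and -0.80 and the WT αYFP libraries between -1.79 and -1.50 with αPonly between -1.52 and -1.26.

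Whether the enhancers differed from HS38 was tested on the same footing. The log2 difference between R1 and HS38 at the insertion region was 1.38 ± 0.14 (SD, n = 4) in αP+G and 0.87 ± 0.35 (SD, n = 3) in WT αYFP (exact permutation p = 0.057). Between R2 and HS38 it was 1.61 ± 0.28 and 1.26 ± 0.36 (exact permutation p = 0.23). At the stretch from Hba-x to upstream of Hba-a1, R2 minus HS38 was 0.70 ± 0.25 in αP+G and 1.19 ± 0.23 in WT αYFP, without overlap (exact permutation p = 0.057), and R1 minus HS38 was 0.88 ± 0.25 and 1.16 ± 0.18 (exact permutation p = 0.17).

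Interactions past the landing site as far as the end of the sub-TAD, over those with the enhancer cluster, had a log2 ratio of -0.72 ± 0.17 from R2 in αP+G and -0.55 ± 0.08 in WT αYFP (exact permutation p = 0.23). From R1 and HS38 the difference was -0.01 and 0.01. The share of interactions in cis was between 0.75 and 1.28 percentage points higher in αP+G over the 3 viewpoints, and the share of cis interactions inside the TAD between 0.92 and 1.18 points higher, with exact permutation p from 0.26 to 0.57.

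The control viewpoints give the level of calls away from the edit for fragments and 5 kb bins. Regions and windows were not tested from them, so those calls have no such reference. At the β-globin promoters Hbb-b1 and Hbb-b2 and at Slc25A37, which encodes the mitochondrial iron importer mitoferrin, 0 of 1009 fragments passed in edgeR (0.0%), with 62 at an unadjusted p under 0.05, and 0 passed in DESeq2. In 5 kb bins 1 of 1151 passed (0.0869%), a bin 575 kb from Slc25A37. It had 250, 158, 203 and 124 interactions per 100,000 in αP+G and 72.9, 50.9 and 56.4 in WT αYFP, on 10 to 44 counts (log2 difference 1.63, SE 0.36, edgeR adjusted p = 0.0028). All αP+G libraries were higher there, and the call was lost without αP+G replicate 1 and without WT αYFP replicate 2 or 3 (adjusted p from 0.057 to 0.11).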

How the data were processed

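The authors removed adaptors with Trim Galore, joined read pairs, split reads at DpnII sites, aligned them with Bowtie (mm9 or a custom genome) and dropped PCR duplicates. They deposited raw counts of unique interactions per viewpoint and DpnII fragment, with lists of viewpoint and exclusion-zone positions. In the mm9 sequence, 41172 of the 41173 fragments listed on chromosome 11 start at a cutting site. Groups and replicate numbers came from the labels. The Ter119+ libraries were not used. Viewpoint names are used as deposited.

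Fragments in an exclusion zone (1000 bases beyond the viewpoint) were left out, and the library size was the remaining cis total. Fragments and bins needed a mean count of 5 to enter the test, edgeR 4.0.16 (quasi-likelihood, in R 4.3.3), with 1 fit per viewpoint of the αP+G, αPonly and WT αYFP libraries. P-values were adjusted by Benjamini-Hochberg over each viewpoint's fragments or bins, and over all combinations for regions (30) and windows (45). Fragments were assigned by midpoint. The insertion region ran from 32169922 to 32173392 and the stretch from Hba-x from 32175105 to 32182970 on chromosome 11. Fragments sharing sequence with the insert hold a 50-base match. DESeq2 1.42.0 and the other alternatives are given at the end. Fragments named are those called and up to 3 with the smallest p per viewpoint in both of these regions, and bins up to 3 per viewpoint. The libraries compared, regions, windows and this rule were chosen with earlier results of these data known. On simulated data with 200 of 873 fragments changed 2-fold, 54% were recovered (77.8% of the 72 deeper ones) with 6 false calls, and 43.5% of 138 changed bins among 554, also with 6 false calls. The simulation held the spread fixed and changed far more features than were called in the data. It therefore does not give the recovery when few features change. Python 3.11.15 was also used. The labels do not say that replicates are separate cultures (the study describes separate differentiations), and p-values measure the spread between these libraries. In edgeR that spread is estimated in part from the other features of the same fit. For regions and windows these are only 10 and 15 per viewpoint, some of them overlapping, so their p-values lean on few features. Same-numbered libraries of the groups did not deviate together (r from -0.089 to 0.031 over 141 bins).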

Additional observations from a re-analysis of the deposited data

Results flagged for a closer look

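In 2 of 91 sets of 4 αP+G values, 1 library stood apart by Dixon's criterion, and chance alone would set apart about 1 set in 20. For the log2 difference between R2 and HS38 at the insertion region, αP+G replicate 2 had 2.02 and the others 1.45 to 1.49, so the gap was 0.937 of the range. For Snrnp25 from HS38, αP+G replicate 3 had 1804 interactions per 100,000 and the others 1870 to 1881, a gap of 0.861 of a narrow range.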

How the results depend on the processing

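The alternatives were chosen with earlier results of these data known. The region calls numbered 3, and 5 with DESeq2 size factors and in the DESeq2 Wald test, 1 with only the 2 groups compared, and 3 to 4 with a library left out. The 5 window calls became 0 with only the 2 groups, 0 at an adjusted p of 0.01 and 0 to 4 with a library left out. The single fragment call became 3 with TMM or DESeq2 size factors, with the exclusion zone widened by 5 kb and with a minimum mean count of 20, 2 with the cis total of the plotted window and with a minimum of 1, and 0 to 4 with a library left out. The single 5 kb bin call became 0 under TMM, under either use of DESeq2 (size factors, Wald test), in the fit of only the 2 groups and in 10 kb bins, 3 with the plotted window and with 2 kb bins, and 0 to 5 with a library left out. The control bin call became 0 to 2, and the control fragment calls stayed at 0.

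With the replicate number as a block, 2 bins passed in place of 1, 3 regions, 4 windows and 1 fragment passed, and the gain to the right of the landing site from R2 had adjusted p = 0.0515. The within-number difference of the ratio of the region past the landing site to the enhancer cluster was -0.030 from HS38 and 0.029 from R1, both with changed sign. With libraries left out, the αP+G minus WT αYFP difference in this log2 ratio ran from -0.030 to 0.078 (HS38), -0.054 to 0.041 (R1) and -0.23 to -0.13 (R2). The same difference in the log2 ratio of the insertion region to the stretch from Hba-x ran from -0.25 to 0.048 (HS38), 0.57 to 0.79 (R1) and 0.68 to 0.83 (R2). The difference in the share in cis from HS38 ran from -0.024 to 1.37 points, and that in the share inside the TAD from R2 from -0.19 to 2.67 points. Of the windows not called, the shared fragments from R1 had -0.010 with DESeq2 size factors, -0.011 in the Wald test and -0.035 to 0.20 with a library left out. The rest of the gene region from R1 ran from -0.10 to 0.076, and the stretch around Hba-x without the gene, from HS38, from -0.021 to 0.16. No called region or window changed sign, and the 85 values that did, of 1079, belonged to features with a log2 difference of at most 0.12. Fragments with few counts that were not called are not shown to be unchanged.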
